A study of Arabidopsis thaliana with 12 samples.

Results

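The Sm core of the Arabidopsis thaliana spliceosome was followed through 10 genes, taken by gene identifier from an expression table of 33559 genes. They encode SmE (SmEb, AT2G18740, and SmEa, AT4G30330), SmD1 (SmD1a, AT3G07590, and SmD1b, AT4G02840) and SmD3 (SmD3a, AT1G76300, and SmD3b, AT1G20580). The others encode SmF (AT4G30220), SmG (SNRNP-G, AT2G23930, and AT3G11500) and an SmB protein (smB, AT4G20440). Whole seedlings, 12 days old, of the Col-0 wild type were compared with smeb-1 and smeb-2, mutant lines of SmEb in the Col-0 strain. Each line was left untreated or given NaCl at 200 mM over 6 h. The titles and treatment fields say salt, but the description field of the treated samples reads Cd, and that conflict in the labels applies to every salt value below. The 12 libraries form 6 groups of 2. Each line carries 1 allele, and the labels do not describe the lesions. The questions were whether loss of SmEb transcript was accompanied by a change in its paralog or in its ring partners, and how salt acted on these genes. All 10 genes passed the filter for low values, which kept 20251 genes.

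Sm proteins close into a ring around a short uridine-rich site of the U1, U2, U4 and U5 small nuclear RNAs, and the ring is the common core of these spliceosomal particles. Each ring holds a copy each of SmB, SmD1, SmD2, SmD3, SmE, SmF and SmG. The ring is put together from smaller groups, in which SmD1 sits with SmD2, SmB with SmD3, and SmE with SmF and SmG. SmEb is also known as PORCUPINE, a gene that Arabidopsis needs for normal growth in the cold.

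SmEb and SmEa are close copies, which bears on how far reads can be assigned to one or the other. SmEb lies on the plus strand at chr2:8123195-8125078 and SmEa on the minus strand at chr4:14836548-14838149 (TAIR10.1, RefSeq), each with 6 exons. Their coding sequences are both 267 bases long, were identical at 235 positions (88.0%) and differed at 32. The longest identical run was 26 bases, so the differences are spread along the whole sequence. They are shown from start to stop codon with every differing base in capitals.
SmEb: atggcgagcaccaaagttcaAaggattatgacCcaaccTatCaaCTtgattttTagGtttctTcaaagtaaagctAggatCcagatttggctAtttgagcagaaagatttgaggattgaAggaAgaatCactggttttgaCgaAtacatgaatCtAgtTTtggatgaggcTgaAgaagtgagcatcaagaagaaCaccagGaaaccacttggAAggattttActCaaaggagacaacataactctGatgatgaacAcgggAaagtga
SmEa: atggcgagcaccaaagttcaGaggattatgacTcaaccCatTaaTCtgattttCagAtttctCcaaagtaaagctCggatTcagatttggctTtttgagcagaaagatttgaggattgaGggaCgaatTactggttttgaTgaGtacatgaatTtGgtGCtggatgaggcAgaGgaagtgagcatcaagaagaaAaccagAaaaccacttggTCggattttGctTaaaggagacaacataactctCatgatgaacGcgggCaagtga
The other pairs shared between 75.1% of aligned coding positions, for SmD1a and SmD1b, and 88.9%, for SNRNP-G and AT3G11500. Their longest identical runs were 26 bases for the SmD1 pair, 41 for the SmG pair and 50 for the SmD3 pair. How the authors' counting treated reads that match both copies is not given in the sources used here, so values of paired genes carry that uncertainty.

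The bases before the gene start were also compared. Windows of 250 bases were searched on both strands for site II (TGGGCC or TGGGCT), the telo box (AAACCCTA) and the ABRE core (ACGTG). The first pair are known from promoters of plant ribosomal and cell cycle genes, and the last from genes that answer abscisic acid. Site II letters were present before 5 of the 10 genes, and before 19.2% of 27443 genes. They were also present before the SmD2 genes AT2G47640 and AT3G62840 and the SmB gene AT5G44500, of which 0 were called with salt in Col-0. Of the 5 members with site II letters, SmEb, SmD1a, SmD3a and SmD3b were called higher with salt in Col-0. SNRNP-G, with 3 matches, was not called there. SmD1b and smB, called higher with salt in Col-0, had no site II letters. SmEa, SmF and AT3G11500, not called higher there, had none either. The calls of SmD1a, SmD1b, SmD3b and smB did not hold under every alternative. A link of these letters to the salt response was not tested. The ABRE core was present before 2 of the 10, SmEb and smB, and before 22.9% of all, and the telo box before 0 of the 10 and 4.5% of all. The last 100 bases before the 5 genes with site II are shown, with the site II letters of either strand in capitals. In TGGGCCCA a match on each strand overlaps.
SmEb, chr2:8123095-8123194, plus strand: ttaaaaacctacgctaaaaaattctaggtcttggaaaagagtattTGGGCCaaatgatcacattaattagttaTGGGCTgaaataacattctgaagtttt
SmD1a, chr3:2422951-2423050, plus strand: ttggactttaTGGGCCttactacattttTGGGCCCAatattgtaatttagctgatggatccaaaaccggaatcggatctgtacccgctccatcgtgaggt
SmD3a, chr1:28625771-28625870, plus strand: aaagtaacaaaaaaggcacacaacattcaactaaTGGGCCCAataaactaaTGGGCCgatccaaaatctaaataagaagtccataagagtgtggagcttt
SmD3b, chr1:7128767-7128866, plus strand: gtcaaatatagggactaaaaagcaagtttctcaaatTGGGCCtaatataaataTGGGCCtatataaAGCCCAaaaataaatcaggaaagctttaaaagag
SNRNP-G, chr2:10182151-10182250, plus strand: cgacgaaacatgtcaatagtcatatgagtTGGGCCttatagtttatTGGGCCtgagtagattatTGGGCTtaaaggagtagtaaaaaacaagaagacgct
A match describes these letters and does not show a bound site. The longer windows of SmEa, SmD1a, SmD3b, smB and AT2G47640 reach into a neighbouring gene, and none of the 100-base windows shown does.

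Expression was deposited as FPKM, fragments scaled to transcript length and library total, and the values below are FPKM unless a log2 scale is named. Within a group the libraries are called library 0 and library 1, after the ending of their column names. The sum of FPKM per library ran from 827553 to 848257 in the controls and from 738721 to 776714 with salt, and the depth behind it is unknown. The 10 highest genes of a library held between 7.85% and 8.59% of its sum in the controls and between 4.05% and 5.68% with salt. Composition thus differed by treatment in every line, and its part in the salt comparisons below was not tested. The Col-0 salt libraries differed more from each other than those of any other group, with a median absolute log2 difference of 0.167 against 0.0847 to 0.0998. Marker genes of photosynthetic shoot (4), root (5) and dividing cells (10) were all above 0 in every library. The 10 dividing-cell markers summed to between 115 and 122 in Col-0 and between 141 and 152 in the smeb lines without salt. With salt they summed to between 60.3 and 66.2 in Col-0 and between 86.3 and 103 in the smeb lines. Of the 10, 5 were called higher in the smeb lines without salt and 8 with salt, and 9 were called lower with salt in Col-0. The 4 shoot markers summed to between 32935 and 36995 without salt, and with salt to between 13710 and 16981 in Col-0 and between 21937 and 24956 in the smeb lines. Within that list CAB1 fell with salt in every line, from 16176 to 1754 in Col-0, while in the smeb lines none of the other 3 was called lower and RCA was called higher in smeb-1. The 5 root markers summed to between 33.2 and 53.9, but they moved in opposite directions with salt. NRT2:1 and MYB36 were called higher in all 3 lines (NRT2:1 from 0.059 to 8.69 in Col-0) and CASP2 lower in all 3 (from 8.19 to 4.74 in Col-0), with CASP1 and EIR1 also called lower in both smeb lines. The part of these markers in the results below was not tested. In whole seedlings, fewer cells of a type and less RNA per cell cannot be told apart. Nothing in the labels says whether libraries of a group came from separate cultures, so the p-values reflect the spread among the sequenced samples alone, which may be technical.

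SmEb, the mutated gene, was lower in both lines, and much lower in smeb-2 than in smeb-1. In the controls its level was 58.9 and 55.1 in Col-0, 27.6 and 26.0 in smeb-1 and 4.93 and 6.24 in smeb-2. With salt it was 73.3 and 76.1 in Col-0, 23.2 and 22.9 in smeb-1 and 1.92 and 2.04 in smeb-2. The lines did not overlap in either treatment. As a share of the Col-0 mean, SmEb stood at 47.1% (smeb-1) and 9.8% (smeb-2) without salt. With salt the shares were 30.8% and 2.65%. The difference between smeb-2 and smeb-1 was −2.09 ± 0.0919 (SE) on the log2(FPKM + 1) scale in control (adjusted p = 1.92e-05, limma) and −3.01 ± 0.0919 with salt (adjusted p = 5.63e-07). SmEb was the only 1 of the 10 genes called between the mutant lines in either treatment, where 0.104% of all genes were called in control (0.0543% higher, 0.0494% lower) and 0.286% with salt (0.178% higher, 0.109% lower). Calls here and below are adjusted p-values under 0.05.

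SmEa, the paralog of the mutated gene, was not called in the smeb lines against Col-0 in either treatment. Without salt it was 27.1 and 32.7 in Col-0, 31.1 and 29.5 in smeb-1 and 33.3 and 32.2 in smeb-2. With salt it was 27.1 and 23.5 in Col-0, 28.6 and 29.6 in smeb-1 and 25.5 and 26.0 in smeb-2. The smeb and Col-0 libraries overlapped in both treatments. The mean difference of the smeb lines from Col-0 was 0.08 on the log2(FPKM + 1) scale without salt, with a 95% interval from −0.10 to 0.26 (adjusted p = 0.525). With salt it was 0.11, with an interval from −0.07 to 0.29 (adjusted p = 0.328). These intervals do not show that SmEa was at the same level, and they reach a rise of 0.29. For smeb-1 alone with salt, leaving out Col-0 salt library 0 gave 0.30 (adjusted p = 0.039).

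The SmE transcript of both genes together therefore stood lower in the mutant lines. Summed over SmEb and SmEa and without salt, it was 85.9 and 87.7 in Col-0, with 58.7 and 55.5 in smeb-1, and 38.2 and 38.4 in smeb-2. With salt it was 100.4 and 99.6 in Col-0, with 51.8 and 52.4 in smeb-1, and 27.4 and 28.1 in smeb-2. The smeb-2 mean was 44.1% of the Col-0 mean without salt and 27.7% with salt, and the smeb-1 mean was 65.8% and 52.1%. SmEa made up a mean of 34.4% of this sum in Col-0 controls, with 53.0% in those of smeb-1 and 85.4% in those of smeb-2. With salt its shares were 25.3%, 55.8% and 92.9% in the same order. In Col-0 most SmE transcript was thus SmEb, and in smeb-2 most was SmEa.

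Across the ring, SmE varied far more than any other position, as the sums over the genes of each position show. The SmE sum holds SmEb, the gene mutated in both lines, so a wide range there was set by the choice of lines. The group means of SmEa alone lay between 25.3 and 32.7. The highest group mean exceeded the lowest 3.61-fold for SmE. The same ratio was 1.35 for SmD1, 1.25 for SmG, 1.23 for SmD3, 1.23 for SmB, 1.11 for SmF and 1.09 for SmD2. For SmB and SmD2 the sums include AT5G44500, AT2G47640 and AT3G62840, which complete the ring and are not among the 10 genes. FPKM is scaled by length, but how reads shared by copies were counted is not known, so levels of different positions compare only roughly. In smeb-2 with salt the SmE sum of 27.7 ± 0.479 (SD, n = 2) lay below the group mean of every other position, the next being SmB at 50.9 ± 2.41. In Col-0 with salt the SmE sums of 100.4 and 99.6 stood beside group means of 56.7 ± 2.64 for SmB, 77.3 ± 2.83 for SmD1 and 98.2 ± 6.66 for SmD3. SmF (131.0 ± 6.36), SmG (152.3 ± 3.33) and SmD2 (176.5 ± 4.86) stood above it there.

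**Figure D1:**
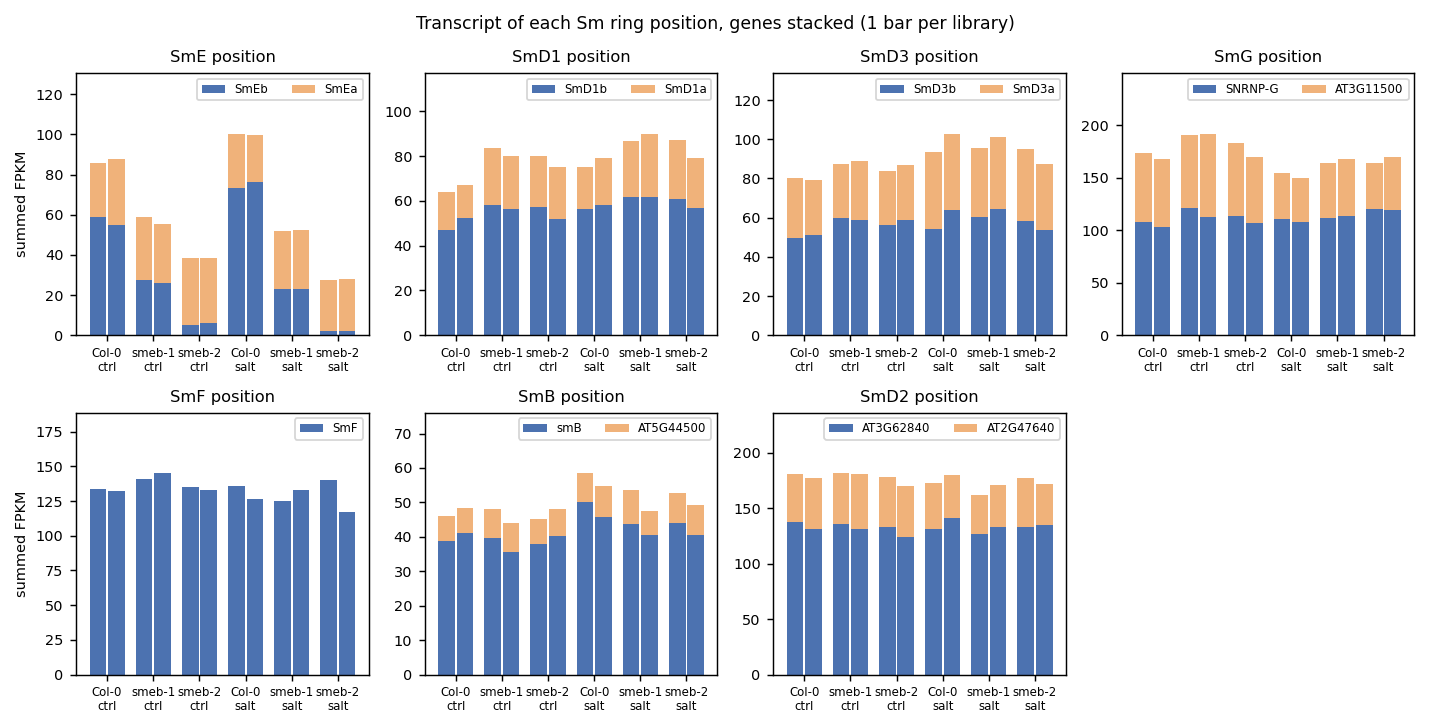
Stacked bars give FPKM in each library (y axis, linear from 0) for the genes of each Sm ring position, with 2 bars for each of the 6 groups along the x axis. The SmE panel falls from 100.4 and 99.6 in Col-0 with salt to 27.4 and 28.1 in smeb-2 with salt, while the group means of the other positions differ by at most 1.35-fold.

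Of the 9 other genes, SmD1a was the only 1 called when both smeb lines were compared with Col-0. In each treatment 1 of the 10 genes was called higher (SmD1a) and 1 lower (SmEb). Among all genes 24.5% were called without salt (11.6% higher, 13% lower) and 27.7% with salt (12.8% higher, 14.9% lower). The median difference of the 10 genes was 0.09 without salt and 0.04 with salt, and that of all genes tested was −0.01 and −0.03. The share of members called was therefore not above that of all genes.

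SmD1a, at chr3:2423051-2424594, was the gene of the SmD1 pair with the lower level, and its copy SmD1b is known to act in splicing and in gene silencing. Without salt SmD1a was 16.9 and 14.7 in Col-0, 25.5 and 23.7 in smeb-1 and 22.9 and 22.8 in smeb-2. With salt it was 18.9 and 21.0 in Col-0, 24.8 and 28.4 in smeb-1 and 26.4 and 22.2 in smeb-2. All 4 smeb libraries lay above both Col-0 libraries in each treatment. The difference was 0.56 ± 0.0913 (SE) without salt, with a 95% interval from 0.36 to 0.77 (adjusted p = 0.00187). It was 0.33 ± 0.0913 with salt, with an interval from 0.13 to 0.54 (adjusted p = 0.0246).

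The rise of SmD1a was called in smeb-1 without salt (0.61, adjusted p = 0.00349), in smeb-2 without salt (0.51, adjusted p = 0.00862) and in smeb-1 with salt (0.40, adjusted p = 0.0218). In smeb-2 with salt the difference was 0.27 (adjusted p = 0.118). The call with salt was lost in a fit of only those groups (adjusted p = 0.0908) and rested on single libraries. The adjusted p became 0.0937 without Col-0 salt library 0, 0.066 without smeb-1 salt library 1 and 0.0663 without smeb-2 salt library 0. For smeb-2 without salt it became 0.0768 without Col-0 control library 1, 0.052 without smeb-2 control library 0 and 0.0578 without smeb-2 control library 1. For smeb-1 with salt it became 0.061 without Col-0 salt library 0 and 0.14 without smeb-1 salt library 1, and was 0.13 in a fit of only those groups. The difference of both lines without salt was called under every alternative.

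SmD1b, at chr4:1264518-1266486, had the same sign without being called. It was 47.0 and 52.4 in Col-0, 58.3 and 56.4 in smeb-1 and 57.3 and 52.1 in smeb-2 without salt, a difference of 0.17 ± 0.0622 (adjusted p = 0.0752). Here library 1 of smeb-2 lay just under library 1 of Col-0, so the groups overlapped. The share of SmD1a in the SmD1 sum was 24.1% ± 3.2 (SD, n = 2) in Col-0 controls, against 30.0% ± 0.591 in those of smeb-1 and 29.5% ± 1.35 in those of smeb-2.

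SmD3b, at chr1:7128867-7130799, which has a copy in SmD3a and is needed for normal development, stood near the threshold. It was 49.7 and 51.0 in Col-0, 59.7 and 58.9 in smeb-1 and 56.3 and 58.9 in smeb-2 without salt. All 4 smeb libraries were above both Col-0 libraries, with a difference of 0.21 ± 0.0694 (adjusted p = 0.0513). The adjusted p was 0.00899 without Col-0 salt library 0 and 0.00901 without Col-0 salt library 1, libraries that entered only through the shared estimate of spread. It was 0.0346 with median-of-ratios scaling, 0.0385 with quantile normalization and 0.0083 in a fit of only the control groups. With salt the difference was 0.00 ± 0.0694 (adjusted p = 0.967).

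The remaining members gave no call for both smeb lines. Without salt SmF (chr4:14802931-14804461), SNRNP-G (chr2:10182251-10183370) and AT3G11500 (chr3:3620962-3622637), which encode the proteins that sit beside SmE, differed by 0.06, 0.11 and 0.09. SmD3a (chr1:28625871-28627408) and smB (chr4:11022036-11023851), which encode proteins that pair with each other, differed by −0.05 and −0.06. With salt, AT3G11500 was 44.1 and 42.5 in Col-0, 52.9 and 53.9 in smeb-1 and 43.9 and 51.4 in smeb-2, a difference of 0.21 ± 0.0784 (adjusted p = 0.0682). The adjusted p was 0.0391 with quantile normalization and 0.039 without smeb-2 salt library 0. It was called in smeb-1 with salt (0.30, adjusted p = 0.0367), and there the adjusted p rose to between 0.0553 and 0.137 when either Col-0 control library, Col-0 salt library 1 or either smeb-1 salt library was left out, and was 0.0511 without the filter and 0.122 in a fit of only those groups. smB was lower in all 4 smeb libraries than in both Col-0 libraries with salt, by −0.18 ± 0.07 (adjusted p = 0.0865). There SmD3a was likewise lower and SNRNP-G higher in all 4, without a call (adjusted p = 0.127 and 0.227, limma). The share of all genes whose libraries separate in this way was not computed.

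**Figure D2:**
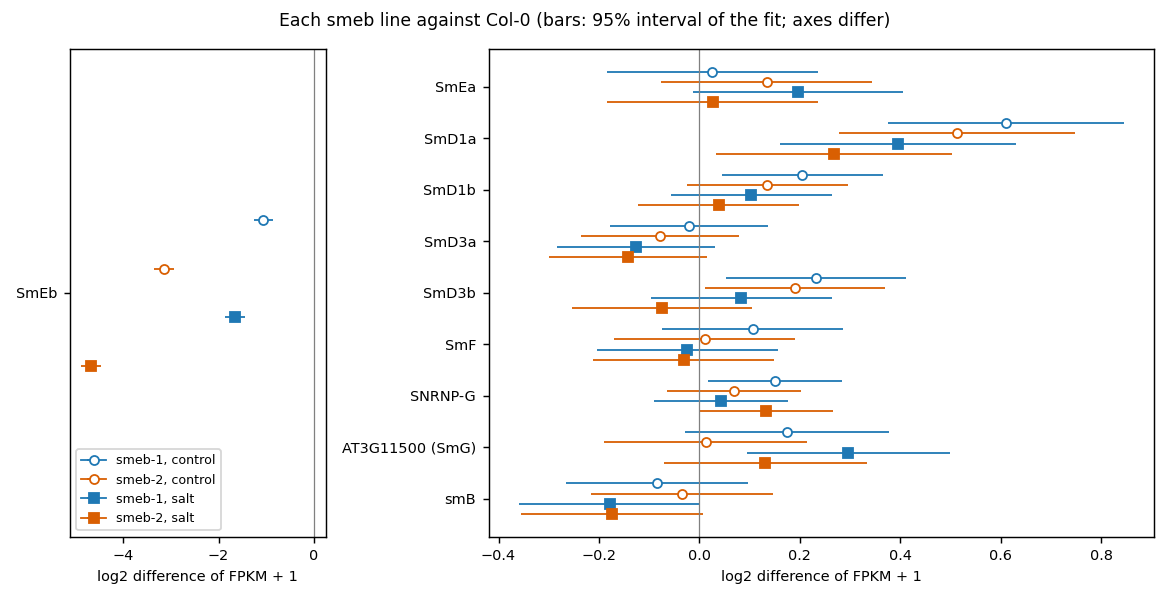
Points give the difference of each smeb line from Col-0 on the log2(FPKM + 1) scale (x axis), without salt (open circles) and with salt (filled squares), and bars give the 95% interval of the fit. SmEb has its own panel with a wider axis, and in the other panel SmD1a lies farthest to the right, at 0.61 and 0.51 without salt.

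By line, 1 gene was called higher and 1 lower in smeb-1 without salt, where 19.8% of all genes were called (9.11% higher, 10.7% lower). The same counts held for smeb-2 without salt, where 18.5% of all genes were called (8.57% higher, 9.9% lower). With salt 2 were called higher and 1 lower in smeb-1, beside 27.6% of all genes (12.4% higher, 15.1% lower). In smeb-2 with salt 0 were called higher and 1 lower, beside 13.7% of all genes (7.66% higher, 6.08% lower). In smeb-2 with salt SmD1a was the 1 member higher at an unadjusted p under 0.05 in the limma fit.

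With salt in Col-0, 7 of the 10 genes were called, a share near that of all genes (61.8%). Salt raised 6 (SmEb, SmD1a, SmD1b, SmD3a, SmD3b and smB) and lowered 1 (AT3G11500). SmEa, SmF and SNRNP-G were not called. Of all genes 34.1% were called higher and 27.7% lower. The count raised was 3 with median-of-ratios scaling, 2 with quantile normalization and 2 in a fit of Col-0 alone. The members' median was 0.21, beside 0.04 for all genes. Salt was confounded with any difference in harvest time, since the labels give both 0 h and 6 h for untreated seedlings, so salt and time of day cannot be told apart.

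SmD3a rose with salt in all 3 lines. It went from 30.4 and 28.3 to 39.2 and 38.9 in Col-0, from 27.8 and 30.0 to 34.8 and 36.6 in smeb-1, and from 27.3 and 28.2 to 36.9 and 33.7 in smeb-2. Salt and control libraries did not overlap in any line. The differences were 0.40, 0.30 and 0.34 in the same order of lines, each ± 0.0703 (adjusted p = 0.000719, 0.00496 and 0.00225).

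AT3G11500, 1 of the SmG genes, fell with salt in all 3 lines. It went from 65.8 and 65.0 to 44.1 and 42.5 in Col-0, from 68.8 and 79.5 to 52.9 and 53.9 in smeb-1, and from 69.2 and 62.9 to 43.9 and 51.4 in smeb-2. Again salt and control did not overlap in any line. The differences were −0.59 ± 0.0905 (adjusted p = 0.000312), −0.46 ± 0.0905 (adjusted p = 0.00159) and −0.47 ± 0.0905 (adjusted p = 0.00143). Its copy SNRNP-G was not called in any line, with differences of 0.05, −0.05 and 0.12. SNRNP-G was the more abundant of the SmG genes, between 102.6 and 121.4 in the 12 libraries. The split of the SmG transcript between both genes therefore shifted towards SNRNP-G with salt, as far as reads of these copies can be told apart.

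SmEb was called higher with salt in Col-0, and its response differed between Col-0 and the mutant lines. The change with salt was 0.39 ± 0.0919 in Col-0 (adjusted p = 0.00455). In smeb-1 the change was −0.21 ± 0.0919 (adjusted p = 0.0733), and in smeb-2 it was −1.14 ± 0.0919 (adjusted p = 4.21e-06). The fall in smeb-1 was called with the other scalings, in a fit of smeb-1 alone and without either smeb-2 control library (adjusted p from 0.0234 to 0.0335). The difference in response between both smeb lines and Col-0 was −1.06 ± 0.113 (adjusted p = 0.000598). SmEb was the 1 member of 10 with a called difference of responses, where 9.96% of all genes were called, 6.18% higher and 3.78% lower. The responses of the other 9 differed by between −0.23 and 0.12, and their median of −0.09 stood beside −0.02 for all genes. For SmD3b, the difference in response was −0.21 ± 0.0982 (adjusted p = 0.214), and without Col-0 salt library 0 it was −0.32 (adjusted p = 0.0168).

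The smaller rises in Col-0 were SmD1a at 0.32 (adjusted p = 0.0224), SmD1b at 0.21 (adjusted p = 0.0304), SmD3b at 0.22 (adjusted p = 0.0337) and smB at 0.25 (adjusted p = 0.0198). SmD3b was 49.7 and 51.0 without and 54.3 and 64.0 with salt. For smB, which encodes the partner of SmD3 in the ring, the values were 38.7 and 41.2 without and 50.1 and 45.7 with salt. The calls of these 4 genes did not hold throughout. Median-of-ratios scaling ended the calls of SmD1b, SmD3b and smB, with adjusted p from 0.0671 to 0.118. Quantile normalization ended all 4 calls (0.0868 to 0.199), and so did a fit of Col-0 alone (0.0696 to 0.143).

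Single libraries of Col-0 also decided these 4 calls. SmD1a was lost without control library 1 (adjusted p = 0.159) and without salt library 1 (0.105). SmD1b was lost without control library 0 (0.223) and without salt library 1 (0.0863). SmD3b was lost without control library 0 (0.13), without control library 1 (0.0825) and without salt library 1 (0.208). smB was lost without control library 0 (0.116) and without salt library 0 (0.0908). The calls of SmEb, SmD3a and AT3G11500 in Col-0 held under every alternative.

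In smeb-1 salt raised 1 member (SmD3a) and lowered 1 (AT3G11500), with 57.8% of all genes called, 31% higher and 26.8% lower. In smeb-2 it raised 1 (SmD3a) and lowered 3 (SmEb, SmEa and AT3G11500), with 59.7% of all genes called, 32% higher and 27.7% lower. The members' medians were 0.01 and 0.02, beside 0.03 for all genes in each. In both lines the share of members called was below that of all genes.

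SmEa had its clearest fall with salt in smeb-2, from 33.3 and 32.2 to 25.5 and 26.0, without overlap. The difference was −0.33 ± 0.0937 (adjusted p = 0.0114), which became 0.0629 without smeb-2 control library 0 and 0.0559 without smeb-2 salt library 0. In Col-0 it was −0.23 ± 0.0937 (adjusted p = 0.0585) with overlapping libraries. There the adjusted p was 0.012 without control library 0 and 0.0167 without salt library 0, and 0.0309 and 0.014 with median-of-ratios and quantile scaling. In smeb-1 it was −0.06 ± 0.0937 (adjusted p = 0.63). The difference in SmEa response between smeb lines and Col-0 was 0.03 ± 0.115 (adjusted p = 0.885).

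**Figure D3:**
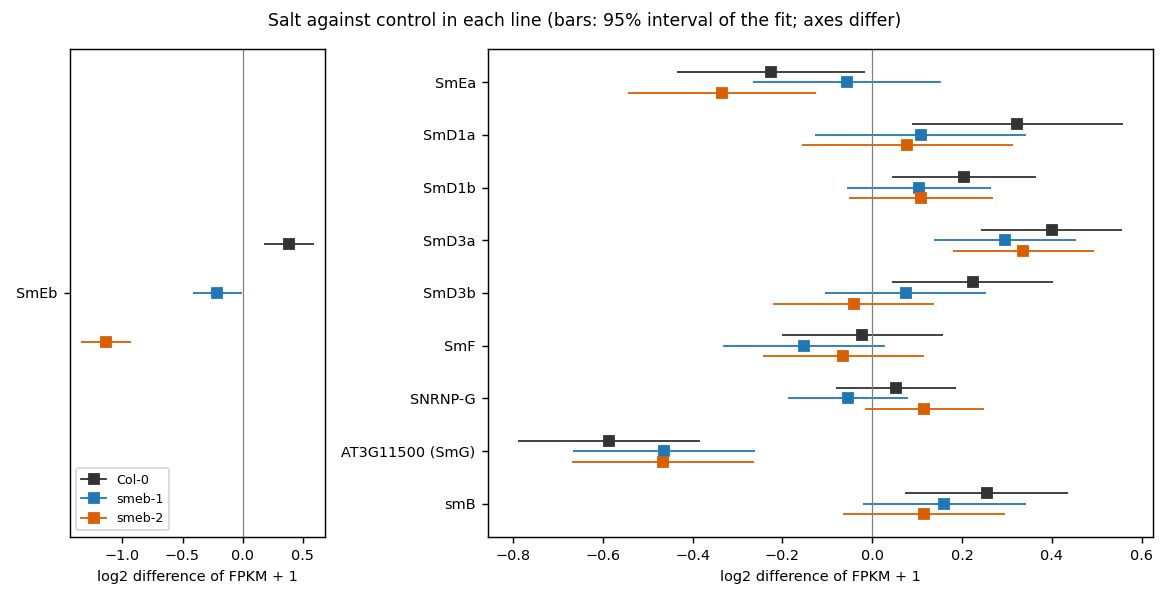
Points give the change with salt on the log2(FPKM + 1) scale (x axis) in Col-0, smeb-1 and smeb-2, and bars give the 95% interval of the fit. SmD3a lies right of 0 and AT3G11500 left of 0 in each line, while SmEb, in its own panel, runs from 0.39 in Col-0 to −1.14 in smeb-2.

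**Figure D4:**
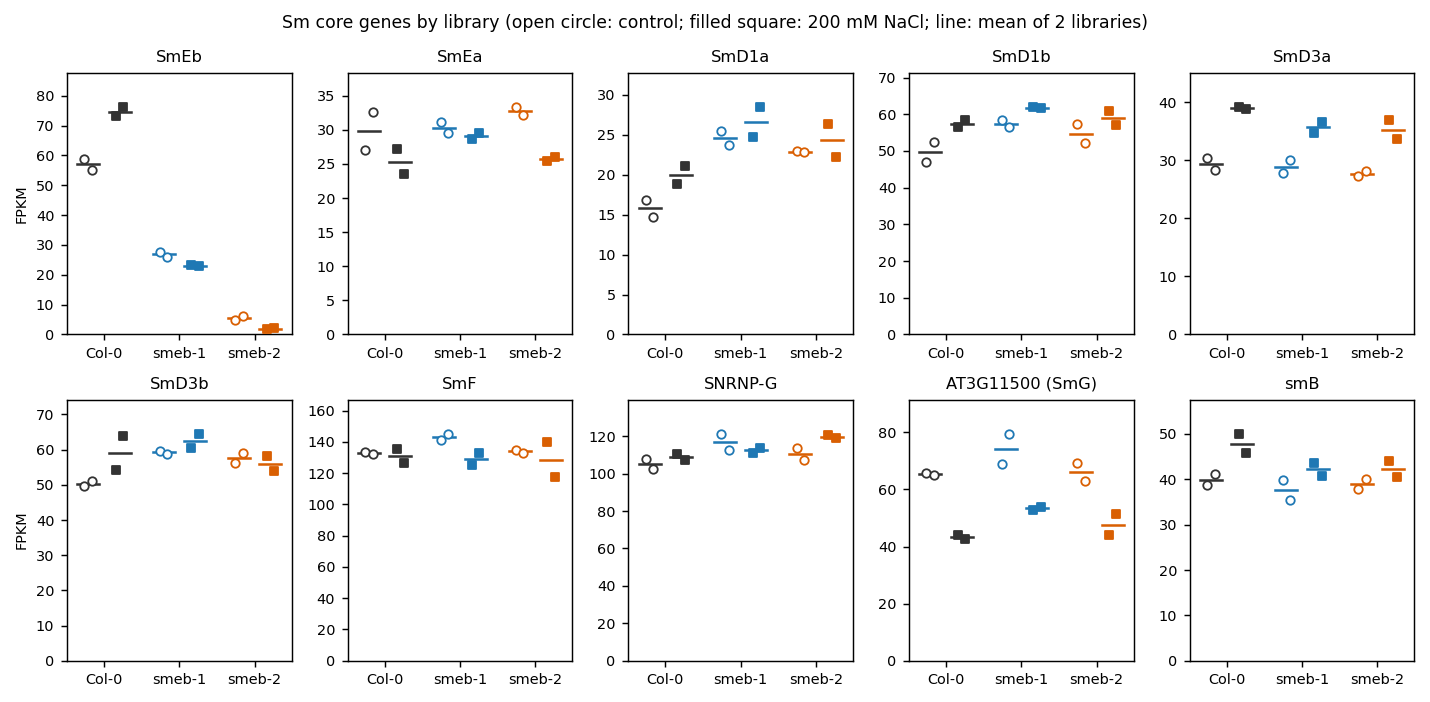
Each panel gives FPKM (y axis, linear from 0) of 1 Sm core gene in the 12 libraries, with control as open circles, salt as filled squares and a line at the mean of 2 libraries. SmEb spans 1.92 to 76.1, and SmD1a is lowest in the Col-0 controls at 16.9 and 14.7.

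Across the 12 libraries, AT3G11500 ran opposite to SmD3a (Pearson r = −0.90) and to smB (r = −0.88). SmEa ran opposite to SmD3a (r = −0.81) and with AT3G11500 (r = 0.75). SmD3b ran with SmD1a (r = 0.79), SmD1b with SmD1a (r = 0.76) and smB with SmD3a (r = 0.76). The other pairs of members were weaker. SmEb and SmEa had r = −0.08. These values describe 12 libraries that share treatment and genotype groups. Among the 14834 genes whose FPKM averaged 5 or more, the gene most like SmEb over the 12 libraries was AT5G11330 (r = 0.94). Its means without salt were 43.9 for Col-0, 43.7 for smeb-1 and 20.1 for smeb-2, and 50.5, 47.2 and 15.9 with salt. Unlike SmEb it was thus near the Col-0 level in smeb-1. LINC2, AT4G16840, AT3G62200 and MAPKKK6 followed with r from 0.84 to 0.88. For SmEa the 5 most alike were AT3G62790, CLPP6, AT5G19370, AT5G16140 and CBL2, all with r of 0.92.

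The 3 ring genes outside the 10 gave no call in smeb lines against Col-0. The SmD2 gene AT2G47640 was lower with salt in smeb-1 (−0.37, adjusted p = 0.00546), and the SmD2 gene AT3G62840 and the SmB gene AT5G44500 were not called with salt in any line. Of 7 genes for assembly and biogenesis of the particles, 0 were higher and 1 lower in smeb lines without salt, with a median of −0.03. That gene was AT1G30550, annotated as a methyltransferase (7.25 and 6.71 in Col-0 and between 3.66 and 4.5 in the smeb lines), at −0.64 ± 0.0943 (adjusted p = 0.00111). With salt 0 of the 7 were called. AT1G30550 also had a called difference of salt responses, at 0.62 (adjusted p = 0.019), which was lost without Col-0 control library 0 (0.0829) or library 1 (0.0597).

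Among 6 proteins of the U1 and U2 particles, which carry the Sm ring, 2 genes were higher and 1 lower in the smeb lines in each treatment. U1-70K, which binds U1 RNA, was lower by −0.38 ± 0.0653 without salt (adjusted p = 0.00255) and by −0.23 ± 0.0653 with salt (adjusted p = 0.0259). U1A, another U1 protein, was higher by 0.27 ± 0.06 without salt (adjusted p = 0.0101) and by 0.36 ± 0.06 with salt (adjusted p = 0.0029). AT1G06960 was higher by 0.38 ± 0.111 (adjusted p = 0.031) and 0.45 ± 0.111 (adjusted p = 0.0162). The call of U1A without salt was lost without Col-0 control library 0 (0.0828) or library 1 (0.0619). That of AT1G06960 without salt was lost without either Col-0 control library, either smeb-1 control library or smeb-2 control library 0 (0.0663 to 0.147), and was 0.0533 without the filter. Its call with salt was lost without Col-0 salt library 1 (0.137) and in a fit of only the salt groups (0.0809). That of U1-70K with salt was lost without Col-0 salt library 1 (0.189), either smeb-1 salt library or smeb-2 salt library 1 (0.0543 to 0.0676), and in a fit of only the salt groups (0.108). The call of U1-70K without salt and that of U1A with salt held under every alternative.

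Of 11 genes of the U5 particle and the tri-snRNP, 10 were tested, and PRP3, a U4/U6 protein, was the only 1 called in smeb lines. It was 11.9 and 11.2 in Col-0 and between 15.2 and 17.9 in the smeb lines without salt, a rise of 0.47 ± 0.0936 (adjusted p = 0.0054), lost without Col-0 control library 1 (0.0625). With salt the rise was 0.28 ± 0.0936 (adjusted p = 0.0489), lost in a fit of only the salt groups (0.109) and without either library of the Col-0 controls, the smeb-2 controls, smeb-1 with salt or smeb-2 with salt (0.0619 to 0.114). Without Col-0 salt library 0 the rise with salt was 0.14. In that fit SUS2, emb1507, AT2G42270, emb1220, LIS and YLS8 were lower in the smeb lines with salt, at between −0.37 and −0.22. With all libraries, 0 of the 10 tested genes were called lower there, and the list's median was −0.12. The result of this list with salt thus depended on that library. AT4G38780, a PRP8 gene that was too low to be tested and was chosen after its values were seen, was 0.34 and 0.201 in Col-0 and between 0.68 and 0.742 in the smeb lines without salt.

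With salt in Col-0, 4 of the 7 assembly genes rose and 2 fell, 2 of the 6 U1 and U2 genes rose and 2 fell, and 5 of the 10 U5 and tri-snRNP genes rose and 0 fell, where 34.1% of all genes rose and 27.7% fell. Without Col-0 control library 1, SKB1, ICLN and coilin lost their calls, which leaves 1 of the 4 assembly genes that rose, and U2A' lost its call too (adjusted p from 0.0656 to 0.199 for these 4). U1-70K, 1 of the 2 U1 and U2 genes that fell, was lost under 13 alternatives, with adjusted p up to 0.245 (without Col-0 salt library 0). Among the U5 and tri-snRNP genes, YLS8 stood near the threshold in Col-0 (−0.19, adjusted p = 0.0555). It was called lower there with median-of-ratios scaling (adjusted p = 0.0114) and quantile normalization (0.0154). In smeb-1 and smeb-2 YLS8 was called lower with salt (adjusted p = 0.00333 and 0.00424). The medians of the assembly, U1 and U2, and U5 and tri-snRNP lists in Col-0 were 0.26, 0.05 and 0.34, beside 0.21 for the Sm core genes. Those with the smallest p were AT1G30550 (−1.28) and AT2G02570 (−0.87), AT1G06960 (−0.82) and U1C (0.48), and CLO (0.54) and SUS2 (0.55), the genes of the SNU114 and PRP8 proteins of U5. Adjusted p-values of these 6 were between 5.61e-06 and 0.00051.

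**Figure D5:**
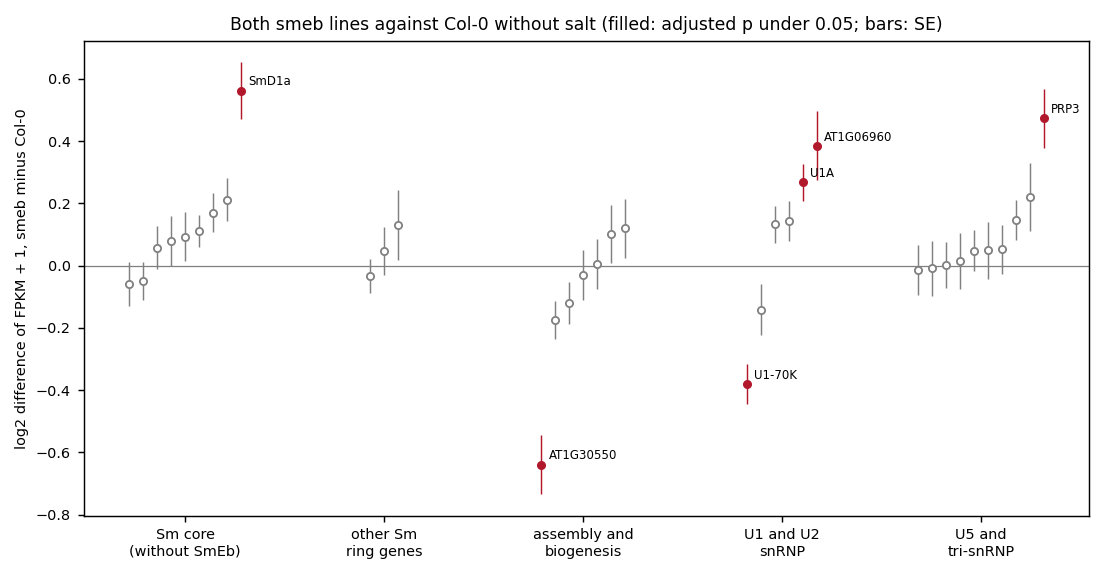
Points give the difference of both smeb lines from Col-0 without salt on the log2(FPKM + 1) scale (y axis) for each gene of 5 lists, SmEb left out, with bars for the SE and filled points for adjusted p under 0.05. SmD1a is the filled point among the Sm core genes at 0.56, and AT1G30550 is lowest at −0.64.

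Transcript forms were read from the authors' deposited tables of splicing events, which pool libraries. The table headed smeb_Na against Col-0 listed 137 events in 131 genes, and that headed WT_Na against WT listed 208 events in 199 genes. Neither listed an event in any of the 10 Sm core genes. Since only events are listed, this does not show that none of the 10 changed in form. Of the 37 spliceosomal genes above, 3 were in the first table and 0 in the second. Its header names neither the smeb line nor the treatment of Col-0, so genotype and salt cannot be told apart there.

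The 3 genes were PRP3, GEMIN2 and CLO. In PRP3 the event was a retained intron at chr1:9779825-9779905. By the counts of the authors' deposited table, 24 reads skipped it and 440 did not in smeb_Na (5.2%, Wilson 95% interval 3.5 to 7.6), against 53 and 158 in Col-0 (25.1%, 19.7 to 31.4), with the authors' FDR at 5.68e-05. PRP3 was also the U5 and tri-snRNP gene whose level was called in the smeb lines against Col-0, though those calls did not hold throughout. The level of CLO was called higher with salt in Col-0, smeb-1 and smeb-2 (adjusted p = 0.000139, 0.00192 and 0.00182, limma). In GEMIN2, which encodes a factor that helps assemble Sm rings in animals, a cassette exon at chr1:20299611-20299689 was skipped by 74 reads and kept by 12 in smeb_Na (86.0% skipped, 77.2 to 91.8), against 47 and 55 in Col-0 (46.1%, 36.7 to 55.7), with the authors' deposited FDR at 5.04e-05. In CLO a cassette exon at chr1:1900297-1900429 was skipped by 80.5% in smeb_Na (76.4 to 84.0) and 63.2% in Col-0 (57.1 to 68.9), with the authors' deposited FDR at 0.00389. The intervals cover counting error only.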

How the data were processed

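The submitters' processing notes name Trimmomatic 0.32 and TopHat2 2.0.13, and TAIR10 as the genome build. The authors deposited FPKM per gene and library. Counting tool and strand use are not stated there, and depth is unknown. The deposited splicing tables hold counts of reads that skip an event and of the other form, with the authors' p-value and FDR. Percent values with Wilson 95% intervals were computed from these counts.

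Genes that reached 1 FPKM in 2 libraries or more were tested on log2(FPKM + 1), which understates changes of low genes, with limma 3.58.1 (trend) in R 4.3.3. All 6 groups entered 1 fit with 6 residual degrees of freedom, and p-values were adjusted by Benjamini-Hochberg over the 20251 genes of each comparison. The steps were tested on simulated data. Sequences and names came from RefSeq TAIR10.1, which matched 32817 of 33559 identifiers. Relative depth, between 0.834 and 1.76, was estimated from low genes. Columns were matched to groups by name but not to replicate numbers, and 0 columns belonged to other samples.

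The members and gene lists were chosen with earlier results of these data known. All members and the 3 other ring genes were named, and of other lists up to 2 called genes with the smallest p, plus AT1G06960. Further genes of these lists were named because their call changed under an alternative or stood near the threshold. PRP3, GEMIN2 and CLO were named for their splicing events, and AT4G38780 after its values were seen. Single marker genes were named where a marker list moved in different directions. The 5 genes most like SmEb and SmEa were named by Pearson r. The alternatives tried were quantile normalization, median-of-ratios scaling, a pseudocount of 0.1, testing without the filter, fitting the compared groups alone, the column ending as a replicate block, and leaving out each library. In the last, the remaining library of a group was taken to vary as much as libraries elsewhere.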

Additional observations from a re-analysis of the deposited data

Results flagged for a closer look

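The response of SmEb to salt differed between lines by a test of that difference. SmEb changed with salt by 0.39 in Col-0 on the log2(FPKM + 1) scale, against −0.21 in smeb-1 and −1.14 in smeb-2, and the mean of the smeb lines minus Col-0 was −1.06 ± 0.113 (adjusted p = 0.000598, limma). Mean FPKM without and with salt was 57.0 and 74.7 in Col-0, then 26.8 and 23.0 in smeb-1, then 5.58 and 1.98 in smeb-2. Groups of 2 libraries are too small for a test of single outlying libraries.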

How the results depend on the processing

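Of 2160 values of the 10 genes under the alternatives, 2095 kept their side of the threshold, 39 lost a call, 26 gained one and 0 called values reversed, while 50 values without a call changed sign. For members raised by salt in Col-0, the count of 6 became 3 with median-of-ratios scaling, 2 with quantile normalization and 2 in a fit of only the groups compared, and lay between 3 and 6 with a library left out. The count lowered was 2 with either other scaling, where SmEa joined AT3G11500, and between 1 and 2 with a library left out. In smeb-1 the count lowered by salt was 2 with both scalings and in the smaller fit, where SmEb was called, and between 1 and 2 with a library left out. For both smeb lines without salt, the count raised was 2 under the same 3 alternatives, where SmD3b was called, and between 1 and 2 with a library left out. With salt it was 2 with quantile normalization and 0 in the smaller fit, and between 0 and 1 with a library left out. For the difference in salt response the count lowered was between 1 and 2.

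By line without salt, the count raised in smeb-1 was 2 with both scalings and in the smaller fit and between 1 and 2 with a library left out, and in smeb-2 it was 2 in the smaller fit and between 0 and 2. In smeb-1 with salt the 2 raised became 1 without the filter and 0 in the smaller fit, and lay between 0 and 2. The cause of these shifts was not tested.

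The replicate block by column ending changed no call of the 10 genes, with 6 raised by salt in Col-0 and 1 raised and 1 lowered in smeb lines without salt. Among the other genes, it ended the calls of PRP3 in smeb lines with salt (adjusted p = 0.0601), U1A in smeb-2 without salt (0.0567), U1-70K with salt in Col-0 (0.0514), GEMIN2 and U2A' with salt in smeb-1 (0.0502 and 0.0609) and emb1507 and AT2G42270 with salt in smeb-2 (0.0571 and 0.0528), and U2B'' with salt in Col-0 gained one (0.0381). The endings do not pair the samples by label, and deviations of libraries with the same ending had r between −0.125 and 0.112 over 15 pairs of groups. Depth is unknown, so no counting interval of the FPKM values was computed.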
